A study of Mus musculus with 5 samples.

Results

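The 10 genes described here encode parts of the cytoskeleton: the actins Actb and Actg1, the actin monomer binders Tmsb4x, Tmsb10 and Pfn1, the filament-severing protein Cfl1, the myosin light chain Myl6, and the tubulins Tuba1a, Tuba1b and Tubb5. They were chosen by symbol among the 23284 gene symbols of each count table, and all 10 were found. RNA was sequenced from primary pancreatic acinar cells of Arid1afl/fl;p48-Cre mice (3 knockout libraries) and of p48-Cre mice (2 control libraries), all C57BL/6 and 8 weeks old. Both groups carry p48-Cre, so the floxed Arid1a alleles are the labelled difference between them. Arid1a encodes a DNA-binding subunit of SWI/SNF chromatin remodelling complexes, and p48 is another name for Ptf1a, whose promoter drives Cre in pancreatic progenitors, so other cells of the pancreatic epithelium also descend from cells with Cre. Per the labels' protocols, pancreas was minced, digested in 2 rounds, passed through a strainer and left to recover in medium with serum before RNA extraction. The labels tie no library to an animal or culture, so the p-values below reflect variation between libraries that could be technical.

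Actin monomers assemble into filaments and are held in reserve by thymosins. Profilin delivers monomers to growing filament ends, and cofilin severs old filaments and releases monomers again. Alpha and beta tubulins pair to form microtubules. In acinar cells, filaments under the apical membrane and along the sides of the cell take part in zymogen release and cell shape, and actin genes are known targets of serum response factor, which binds a DNA motif called the CArG box.

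Several of the genes share stretches of sequence with relatives, which matters for counts per gene symbol. The starts of the coding sequences of both actins and both thymosins are shown to let the members of each pair be compared. They are the first 90 bases of the coding sequence, 5′ to 3′, from GENCODE M21 transcripts on GRCm38, with the bases that differ within a pair in capitals.
Actb: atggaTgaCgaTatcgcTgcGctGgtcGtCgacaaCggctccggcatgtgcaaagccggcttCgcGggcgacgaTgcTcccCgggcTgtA
Actg1: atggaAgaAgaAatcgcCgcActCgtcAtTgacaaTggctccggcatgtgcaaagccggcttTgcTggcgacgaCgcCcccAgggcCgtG
Tmsb4x: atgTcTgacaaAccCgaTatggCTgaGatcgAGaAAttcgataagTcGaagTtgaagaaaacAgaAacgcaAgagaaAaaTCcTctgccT
Tmsb10: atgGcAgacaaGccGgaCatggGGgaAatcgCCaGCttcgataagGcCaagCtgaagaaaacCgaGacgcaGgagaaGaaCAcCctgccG

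Actb and Actg1 differed at 128 of 1128 coding bases, and their longest identical run was 62 bases. Tmsb4x and Tmsb10 were 70.4% identical over 135 bases, with no identical run over 10 bases.

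Depth differed widely between the groups. The knockout libraries held 3471701, 4049215 and 3609099 counts, and the controls 291677 and 589798. Rn45s, the ribosomal RNA precursor, took 6.78% to 10.9% of knockout counts and 72.6% to 82.2% of control counts. Without Rn45s and Lars2, 3155357 to 3568906 counts were left per knockout library and 67514 and 72006 in the controls, and counts scaled to those totals (CPM) are given below. A count of 3 then stood for 0.841 to 0.951 CPM in the knockouts and for 44.4 and 41.7 CPM in the controls. A set of 38 genes took 75.0%, 63.5% and 84.0% of these totals in knockouts 1, 2 and 3. It took 63.9% and 67.4% in controls 1 and 2. Most of the set are digestive enzymes, and it also holds other secretory genes such as Reg1 and Sycn. It is called enzymes below. Arid1a itself had 44, 121 and 42 counts in the knockouts and 0 and 3 in the controls, and at this control depth a gene-level count does not check the deletion.

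None of the 9 cytoskeleton genes that could be tested was called different between Arid1a knockout and control cells. On totals without Rn45s and Lars2, the summed level varied as much within each group as between groups. On those totals the controls ranged 4.61-fold. Without enzymes, and on all counts, which include Rn45s, the fold between groups exceeded the range among the knockouts. The comparison with the knockout range thus depends on the total. Without enzymes the groups still overlapped, with 3892 CPM in control 1 and 3324 CPM in knockout 3. Summed over the 10 genes, knockouts 1, 2 and 3 had 1426, 3017 and 532 CPM, against 1407 and 306 CPM in controls 1 and 2. Knockout 1 and control 1 were thus nearly equal, knockout 2 stood above all others, and knockout 3 lay between the controls. The group means were 1658 ± 1259 CPM in knockouts (SD, n = 3) and 856 ± 779 CPM in controls (SD, n = 2). The difference of mean log2 sums, knockout minus control, was 1.01, smaller than the pooled SD of 1.36 within groups. Without control 2 it was -0.10, so its direction rests on that library. In bulk RNA, fewer cells of a type and less RNA per cell cannot be told apart.

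**Figure D1:**
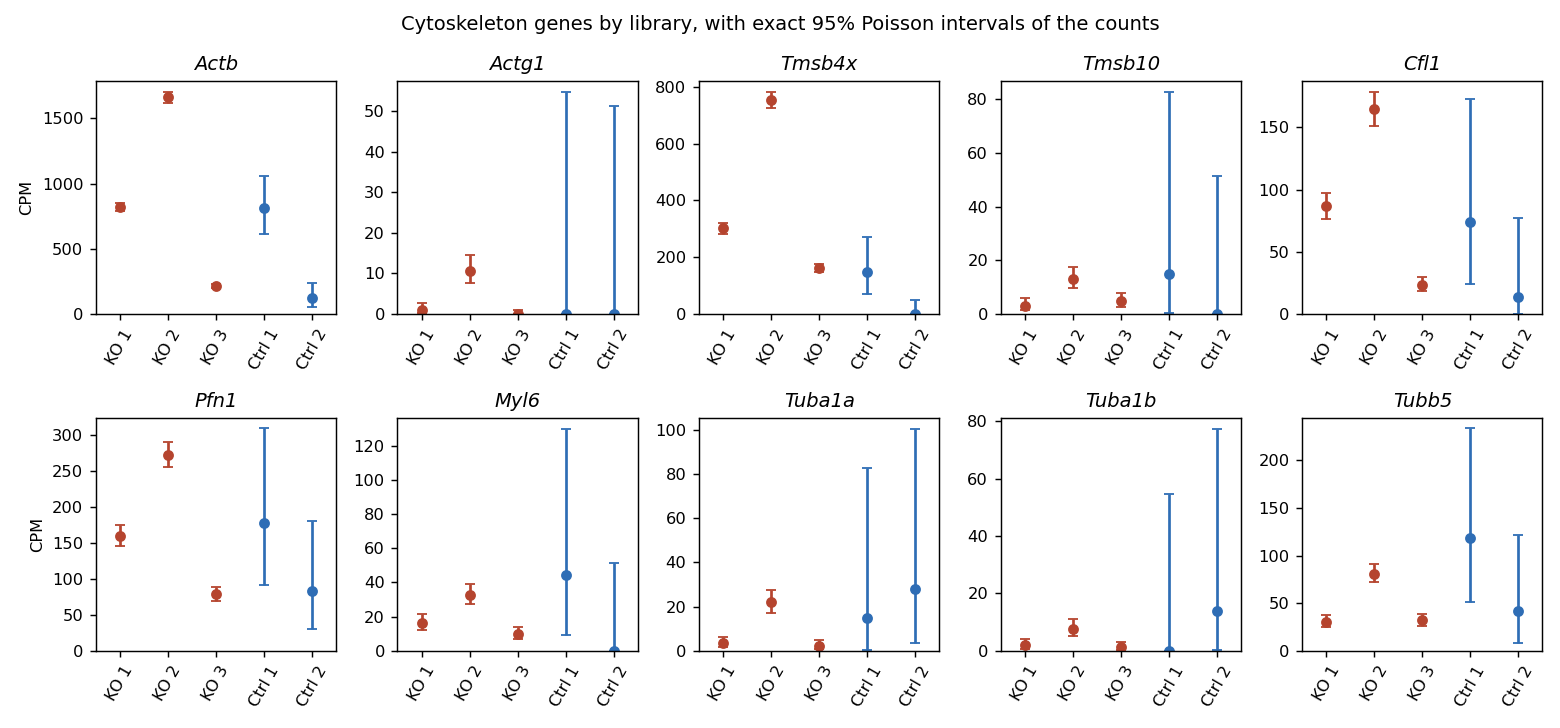
CPM of each of the 10 genes (y axis, own range per panel) in knockout libraries 1 to 3 (red) and control libraries 1 and 2 (blue), with exact 95% Poisson intervals that cover counting error only. Knockout 2 is the highest knockout in all 10 panels, and the control intervals are wide, as for Actb in control 2, with 57.2 to 237 CPM.

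In the fit over 8291 genes (edgeR's quasi-likelihood test, Benjamini-Hochberg adjustment), 16 genes (0.193%) were called higher and 133 (1.6%) lower in knockouts. Of the 9 cytoskeleton genes that passed the low-count filter, 0 were called in either direction, beside 149 (1.8%) of all tested genes. At an unadjusted p under 0.05, Tmsb4x was the 1 member and 1072 of all tested genes passed. The median log2 fold change of the 9 genes was -0.04, against 0.22 over all tested genes. The second value rests on 2775 tested genes without a control count, whose fitted folds depend on the prior count. With those genes at their bound against 3 counts over both controls (a treatment added after the values were seen), and 2374 at or under that floor left out, the median of all genes was -0.83 and that of the 9 genes still -0.04, so the order of both medians turns with the treatment of zeros. The control libraries held 10 or more counts in all for 4 of the 10 genes. Actg1, Tmsb10, Myl6, Tuba1a and Tuba1b lay under 41.7 CPM in every knockout, less than 3 counts in either control stand for, so a lower control level could not be seen at this depth.

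Actb, the beta actin of non-muscle cells, was the most counted of the 10 genes. Its counts were 2591, 5926 and 724 in the knockouts and 55 and 9 in the controls. In CPM these were 821, 1660.5 and 216 in knockouts, against 815 in control 1 and 125 in control 2. Control 1 lay at the level of knockout 1, and control 2 lay below all knockouts. The fitted log2 fold change was 0.94 ± 0.91 (SE), with an edgeR adjusted p of 0.598. Pooled over libraries, the ratio of CPM was 2.00, with a 95% interval of 1.57 to 2.60 that covers counting error only, and the spread between libraries was far wider than that.

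Actg1, the gamma actin that accompanies Actb in most non-muscle cells, was almost without counts. It had 3, 38 and 0 counts in the knockouts and 0 in both controls. Knockout 2 held 92.7% of its knockout counts. The knockout mean of 3.87 CPM lies under the 21.5 CPM to which 3 counts over both controls amount, so no fold was formed, and the gene did not pass the filter. Actg1 made up 0.116%, 0.637% and 0% of the counts of both actins in knockouts 1, 2 and 3. The 0 of 55 and 0 of 9 counts in the controls allow shares of up to 6.49% and 33.6% (exact 95% binomial limits). Per kilobase of transcript, the knockout mean of Actb was 236.5 times that of Actg1, a value that rests on knockout 2. The ratio was 159 in knockout 2 (95% counting interval 115 to 224) and 878 in knockout 1 (300.1 to 4261, from 3 Actg1 counts), and without knockout 2 the ratio of means was 1110.

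Tmsb4x encodes thymosin beta 4, the main sequestering protein of actin monomers in many cells. It had 953, 2683 and 542 counts in the knockouts and 10 and 0 in the controls. In CPM, knockouts had 302, 752 and 162, against 148 in control 1 and 0 in control 2. Of the 10 genes, it was the 1 with every knockout above both controls, by a narrow margin between knockout 3 and control 1, whose interval of 71.0 to 272 CPM spans the knockout 3 value. Among all tested genes, 35.6% had every knockout above both controls and 11.2% had every knockout below both. Of the 8291 tested genes, 2775 had no control count, and for them any count in each knockout is enough to lie above. The log2 fold change was 2.46 ± 1.17 (SE), with an edgeR unadjusted p of 0.0351 and an adjusted p of 0.328. The call depends on control 1: without it the edgeR adjusted p was 0.0162, from 1 control library with no Tmsb4x count, where the fitted fold rests on the prior count. Without another library the adjusted p was up to 0.866, and under the other alternatives it was 0.0640 to 0.962.

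Tmsb10 encodes thymosin beta 10, a relative with the same monomer-binding role. It had 10, 47 and 16 counts in the knockouts and 1 and 0 in the controls, and knockout 1 was its lowest knockout. The log2 fold change was -0.04 ± 2.10 (SE), with an edgeR adjusted p of 0.996. Tmsb10 made up 1.04%, 1.72% and 2.87% of the counts of both thymosins in knockouts 1, 2 and 3, against 1 of 11 counts in control 1. Control 2 had no count of either.

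Pfn1, profilin 1, promotes the exchange of actin-bound nucleotide and feeds monomers to filament ends. Its counts were 505, 975 and 264 in the knockouts and 12 and 6 in the controls, or 160, 273 and 78.9 CPM against 178 and 83.3 CPM. Control 1 lay above knockout 1 and control 2 beside knockout 3, so the groups overlapped. The log2 fold change was 0.39 ± 1.14 (SE), with an edgeR adjusted p of 0.862, and its sign turned without knockout 2 (-0.13) and without control 2 (-0.06).

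Cfl1 encodes cofilin 1, the non-muscle cofilin. It had 273, 587 and 79 counts in the knockouts and 5 and 1 in the controls, or 86.5, 164 and 23.6 CPM against 74.1 and 13.9 CPM. Its order across libraries followed that of Actb, with control 1 near knockout 1. The log2 fold change was 1.07 ± 1.37 (SE), with an edgeR adjusted p of 0.658. Myl6, the essential light chain of non-muscle and smooth muscle myosin II, had 51, 117 and 33 counts in the knockouts and 3 and 0 in the controls, and its log2 fold change was -0.16 ± 1.64 (SE, edgeR adjusted p 0.965).

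Tubb5, a widely expressed beta tubulin, had the most counts of the 3 tubulins. Its counts were 96, 289 and 108 in the knockouts and 8 and 3 in the controls, or 30.4, 81.0 and 32.3 CPM against 118 and 41.7 CPM. Control 1 was the highest library for Tubb5, but its interval of 51.2 to 233 CPM takes in the value of knockout 2. The log2 fold change was -0.74 ± 1.32 (SE), with an edgeR adjusted p of 0.761. The alpha tubulins had few counts. Tuba1a had 11, 78 and 8 counts in the knockouts and 1 and 2 in the controls (log2 fold change -1.20 ± 1.64 SE, edgeR adjusted p 0.676). Tuba1b had 6, 27 and 4 counts in the knockouts and 0 and 1 in the controls (log2 fold change -0.98 ± 2.20 SE, edgeR adjusted p 0.815). With TMM factors without Rn45s and Lars2, all 3 tubulins turned to positive fold changes, as the whole distribution moved up.

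**Figure D2:**
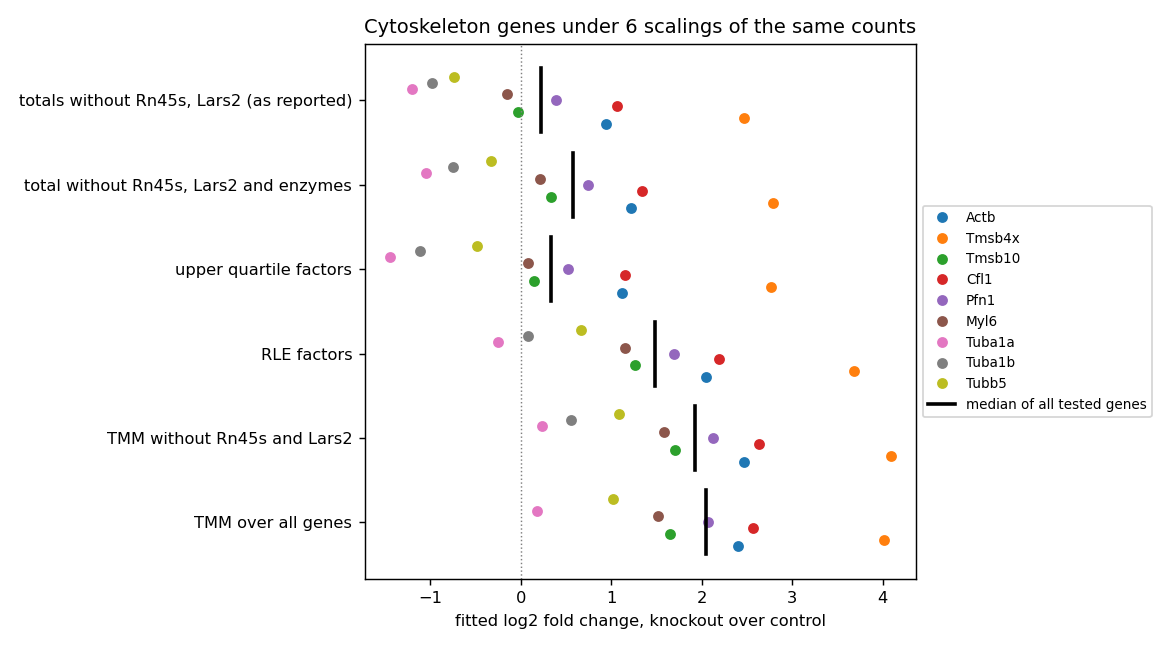
Fitted log2 fold change, knockout over control (x axis), of the 9 tested cytoskeleton genes (coloured points) under 6 ways to scale the same counts (rows), with the median over all tested genes as a black bar. The median moves between 0.22 and 2.05 and the genes move with it, so the signs of Tmsb10, Myl6 and the tubulins depend on the scaling, and Tuba1b did not pass the filter in the lowest row.

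The scaling sets the level against which these fold changes are read. The median log2 fold change of all tested genes was 0.22 as reported, 0.33 with upper quartile factors, 1.49 with RLE factors, 1.93 with TMM factors without Rn45s and Lars2, and 2.05 with TMM factors over all genes. The median of the 9 cytoskeleton genes minus that of all genes was between -0.26 and -0.18 in the 5 fits named here (8 genes in the last). It was 0.63 without knockout 1, 0.48 without knockout 2, -3.28 without control 1 and -5.53 without control 2, so its sign rests on single libraries. Without control 1 the median of all genes was 6.06 and that of the cytoskeleton genes 2.78. Without control 2 they were 5.57 and 0.04. Many genes then had no count in the control left, and their fitted folds depend on the prior count. Actb, Tmsb4x, Cfl1 and Pfn1 were the genes above the median of all genes as reported. None of the cytoskeleton genes tested under these scalings was called.

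The summed level spread 5.68-fold among the 3 knockouts, beside a 2.01-fold difference between the group means of the log2 sums. Without enzymes these were 2.49-fold and 2.82-fold, and on all counts 5.40-fold and 10.8-fold, so their order depends on the total. All counts include Rn45s, at 72.6% to 82.2% of control counts and 6.78% to 10.9% of knockout counts. The 10.8-fold value also carries that difference in Rn45s. Knockout 2 was the highest knockout for all 10 genes, and 8 of them had the order knockout 2, knockout 1, knockout 3. Actb ranged 7.67-fold, Cfl1 6.96-fold, Tmsb4x 4.64-fold and Pfn1 3.46-fold from the highest to the lowest knockout. The counting interval of the 5.68-fold range was 5.40 to 5.97 (95%), and it holds no error between libraries.

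This order was common among well-counted genes. Of 297 genes with a knockout mean of at least 100 CPM, 54.9% had the same order, and the median range was 2.63-fold. Actb lay at percentile 81.5 of these genes by its range, Tmsb4x at 69.7 and Pfn1 at 59.3. Enzyme genes took the largest share of counts in knockout 3 and the smallest in knockout 2, the reverse of the cytoskeleton order. On totals that also leave out the enzymes, Actb ranged 3.36-fold, Tmsb4x 2.03-fold and Pfn1 1.52-fold, beside a median of 2.38-fold, and 26.6% of the 297 genes had that order. The summed level of the 10 genes was then 5714, 8269 and 3324 CPM in knockouts 1, 2 and 3, against 3892 and 938 CPM in controls 1 and 2.

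**Figure D3:**
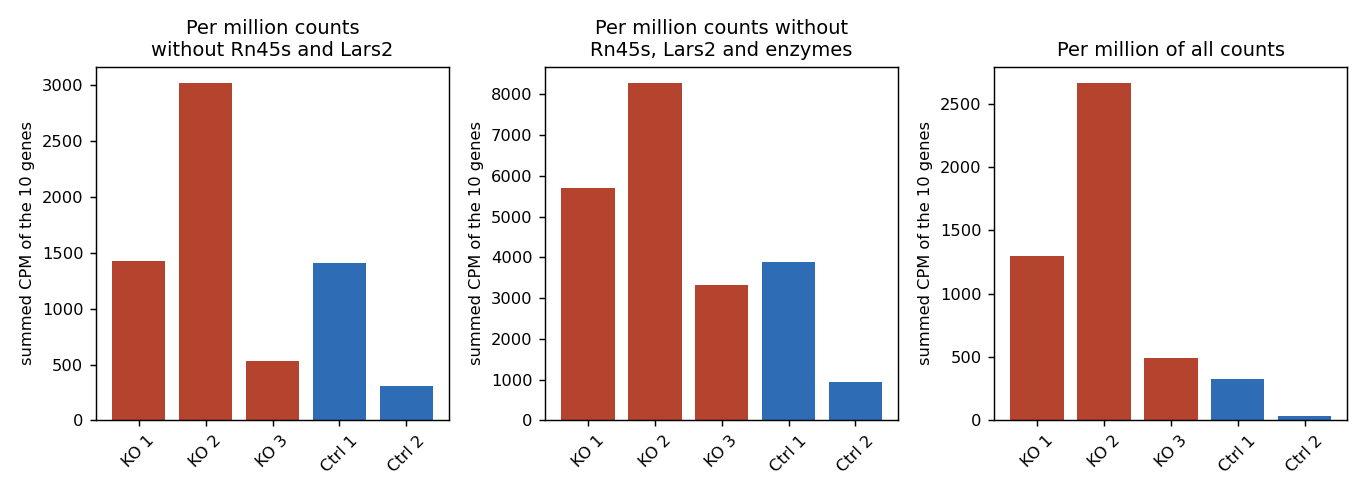
Summed CPM of the 10 cytoskeleton genes (bars, y axis) in knockouts 1 to 3 (red) and controls 1 and 2 (blue), on 3 totals. The highest knockout is 5.68 times the lowest on the left and 2.49 times in the middle panel, without enzymes, while on all counts (right) the controls fall to 326 and 37.3 CPM, next to 1296, 2659 and 493 CPM in the knockouts.

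Ratios between members do not depend on the total. Per library, Tmsb4x made up 26.9%, 31.2% and 42.8% of the counts of Tmsb4x and Actb together in knockouts 1, 2 and 3, against 15.4% in control 1 and 0 of 9 counts in control 2, which allows up to 33.6%. All 3 knockouts lay above both controls, and the exact permutation test (two-sided) gave p = 0.1, the smallest that 10 arrangements of 3 against 2 libraries allow, or 0.6 adjusted over 6 pairs. Cfl1 made up 35.1%, 37.6% and 23.0% of Cfl1 and Pfn1 in the knockouts, against 29.4% and 14.3% in the controls, and the groups overlapped. Their mean log2 ratio was -1.12 ± 0.54 in knockouts (SD, n = 3) and -1.92 ± 0.93 in controls (SD, n = 2), with an exact permutation p of 0.3. It was the only pair of 7 in which every library had counts of both genes, and shares were added after the counts were seen, for 6 pairs.

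Compared per kilobase of transcript, the knockout means were 528 CPM per kb for Tmsb4x, 468 for Actb, 198 for Pfn1, 38.9 for Cfl1, 29.5 for Myl6, 18.1 for Tubb5, 10.2 for Tmsb10, 5.13 for Tuba1a, 2.04 for Tuba1b and 1.98 for Actg1. Tmsb4x and Actb differed by less than their SDs of 401 and 378 CPM per kb (n = 3 each), and so did Tuba1b and Actg1. Most genes low in this order, Tubb5 excepted, had much sequence in common with other genes. A transcript was divided into all its runs of 50 bases, and a run was called shared when a transcript of another gene held it too. The shared part was 0% for Tmsb4x and Pfn1, 0.115% for Tubb5, 14.2% for Actb and 23.0% for Cfl1. It was 43.5% for Tmsb10, 53.2% for Myl6, 56.7% for Actg1, 75.5% for Tuba1a and 83.1% for Tuba1b.

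**Figure D4:**
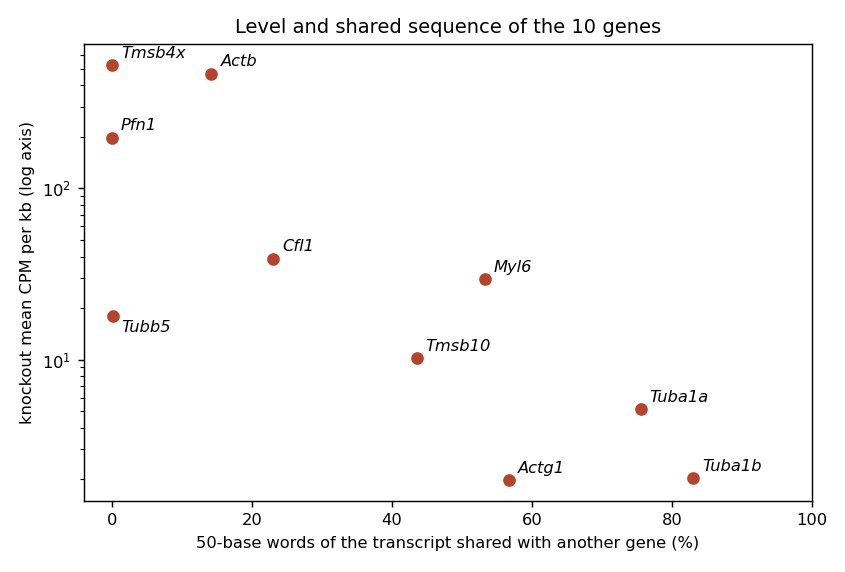
Knockout mean CPM per kilobase of transcript (y axis, log scale) against the share of the transcript's 50-base runs that another gene also holds (x axis, %), with a point for each of the 10 genes. The 5 genes with over 40% shared sequence are all among the 6 lowest levels, and Tubb5, with 0.115% shared, is the other.

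The median shared part was 33.3% for the 10 genes. It was 0.657% for the 127 of 133 other listed cytoskeleton genes that had a matched transcript. These are not all the same as the 127 genes described below, which were taken by symbol from the counted genes. How reads that match several genes were counted is not given in the sources used here, so its part in the low values of Actg1, Myl6, Tmsb10, Tuba1a and Tuba1b was not tested, and their levels are uncertain. Divided by the unshared runs in place of the length, a measure added after the values were seen, Actb stood 119-fold over Actg1 in the knockouts. Other alpha tubulins had more counts than Tuba1a and Tuba1b. Tuba4a had 219, 504 and 78 counts in the knockouts and 1 and 0 in the controls, and Tuba1c 53, 192 and 13 against 0 and 0. Per kilobase the knockout means were 27.5 CPM for Tuba4a and 12.5 CPM for Tuba1c, with 48.8% and 61.0% of their own sequence shared.

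A wider set of 127 cytoskeleton genes gave no call either. Of the 96 that were tested, 0 were higher and 0 lower by edgeR at an adjusted p under 0.05, beside 0.193% and 1.6% of all tested genes. The unadjusted count of 1072 genes was given above. Their median log2 fold change was 0.04, against 0.22 over all genes. With the treatment of zeros given above it was -0.32, against -0.83. That treatment left out 10 of the 18 tested genes of this set without a control count. The summed level of the 127 genes was 2560.4, 4974 and 1144 CPM in knockouts 1, 2 and 3, against 3821 and 4361 CPM in controls 1 and 2. The order of the knockouts was the same as for the 10 genes, but the controls lay close to each other. No control count was found for 43 of them.

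The cytoskeleton lists are given by role. Medians with bounds leave out tested genes without a control count that lay at or under the floor. In the chaperonin list that was 3 of 3 such genes, and 1 of 1 in the capping and monomer lists. No bound entered those medians. For serum response factor and its targets, 5 of 6 were left out. The 17 tested genes for capping, crosslinking and membrane linkage had a median log2 fold change of -0.90 (-0.97 with bounds), and the 14 for tropomyosins and non-muscle myosin II one of -0.72 (-1.30 with bounds). The 14 for monomer binding and filament turnover had -0.44 (-0.49), the 17 for actin nucleation -0.59 with and without bounds, and the 15 for tubulin folding and microtubule binding -0.07 (-0.40). Of 17 other tubulins, 12 had no control count, and the 5 that were tested had a median of 3.42, or 1.00 with bounds. Tpm1, a tropomyosin that stabilises filaments, had 151, 301 and 43 counts in the knockouts and 28 and 15 in the controls, or 47.9, 84.3 and 12.9 CPM against 415 and 208 CPM. All knockouts lay below both controls for Tpm1, without a call, as they did for 11.2% of all tested genes. Flna, the crosslinker filamin A, had 56.4, 98.1 and 45.1 CPM in the knockouts and 178 and 111 CPM in the controls. The 13 tested genes of the chaperonin CCT and prefoldin, which fold actin and tubulin, had a median of 0.79 (0.38 with bounds), with Cct5 at 164, 201 and 106 CPM in knockouts against 59.2 and 153 CPM in controls. Of the 22 tested genes for serum response factor and its targets, 1 was called higher and 0 lower (median 1.45, or 0.15 with bounds), beside 16 (0.193%) higher and 133 (1.6%) lower of all tested genes. It was Egr1, an immediate-early transcription factor, with 335, 987 and 26.9 CPM in the knockouts against 0 and 13.9 CPM in the controls (edgeR adjusted p 0.0173). Its counts were 1056, 3522 and 90 against 0 and 1, and knockout 3 lay under the 41.7 CPM that 3 counts stand for in control 2.

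The CArG box was searched on both strands in the 250 bases before each annotated start in the RefSeq promoter table (GRCm38.p6), which held 9 of the 10 genes, all but Actb. It was found for 2 of the 9, Actg1 and Myl6, and for 439 of all 27025 genes in the table (1.62%). The windows of 50 bases around the boxes, chr11:120348556-120348605 for Actg1 and chr10:128493030-128493079 before the second start site of Myl6, both on the minus strand, are shown with the box in capitals because they are the matches among these genes.
Actg1 promoter: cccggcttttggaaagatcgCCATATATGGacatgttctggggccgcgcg
Myl6 promoter: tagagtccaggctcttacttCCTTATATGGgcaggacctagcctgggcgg

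A match says nothing of binding in these cells.

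Several other gene groups were also highest in knockout 2 among the knockouts. The 17 immediate-early genes, which respond within minutes to stimulation or handling of cells, summed to 4023, 8532 and 477 CPM in knockouts 1, 2 and 3, against 1837 and 1083 CPM in controls 1 and 2. The 10 duct markers summed to 2463, 4972 and 769.8 CPM in the knockouts, against 1599.7 and 930.5 CPM in the controls. Both were highest in knockout 2, lowest of the knockouts in knockout 3, and higher in control 1 than in control 2. Of the duct markers, Krt18 and Krt8 are also made by acinar cells. Spp1 ran otherwise, with 88.4, 324 and 102 CPM in the knockouts against 444 and 389 CPM in the controls. Krt7 had 83, 310 and 21 counts in the knockouts and 9 and 6 in the controls. In CPM, control 1 lay above every knockout for Krt7. Immune markers summed to 139, 497 and 115 CPM in the knockouts and 163 and 41.7 CPM in the controls, with Cd74 at 81.4, 282 and 61.6 CPM against 163 and 0 CPM. Endothelial markers summed to 206, 243 and 47.2 CPM in the knockouts and 0 and 97.2 CPM in the controls. The 97.2 CPM in control 2 were 7 counts of Esam alone. Smooth muscle and pericyte markers summed to 97.3, 125 and 31.1 CPM against 0 and 83.3 CPM, where the 83.3 CPM were 6 counts of Rgs5 alone. Islet markers summed to 176, 929 and 213 CPM against 104 and 680.5 CPM. Stellate cell and fibroblast markers summed to 80.5, 217 and 29.6 CPM in the knockouts and 267 and 306 CPM in the controls. Those control sums rest on few genes. Vim had 17 counts in control 1 and 6 in control 2, where Col1a1 had 12 and Lum 4. Col1a2, Col3a1, Dcn, Des, Pdgfra and Thy1 had counts among the knockouts and 0 in both controls. All 5 erythroid markers were listed at 0 in every library, as was the acinar amylase gene Amy2a5. Tubb3, the neuronal beta tubulin, had 0, 42 and 0 counts in the knockouts and 0 in both controls. The part of these cells and of handling in the cytoskeleton levels was not tested.

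**Figure D5:**
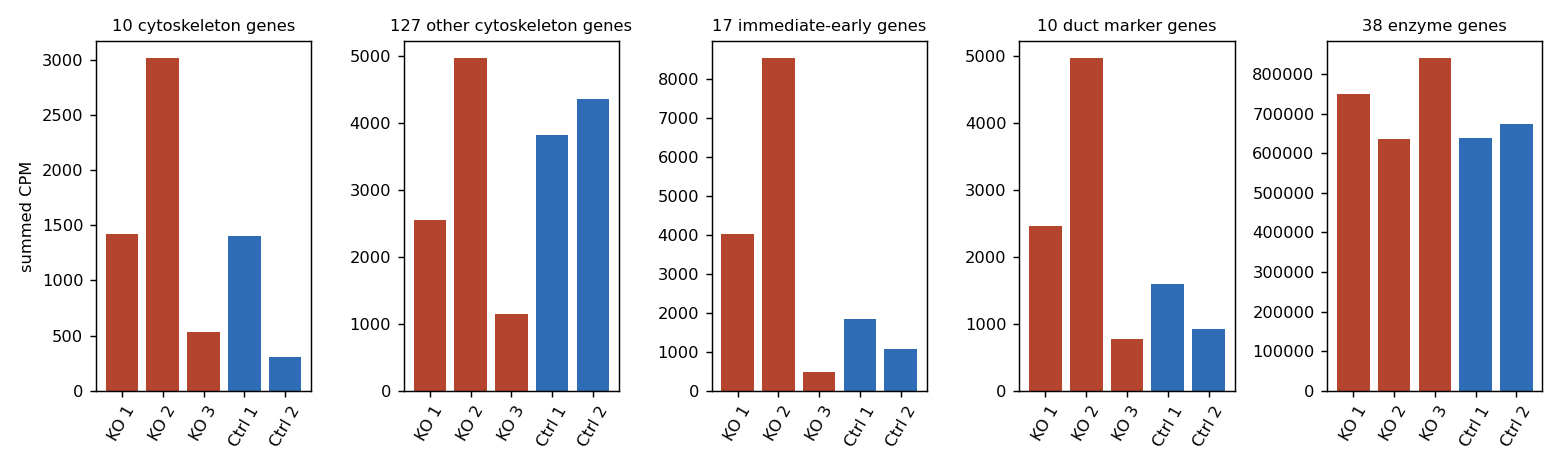
Summed CPM (y axis, own range per panel) of the 10 cytoskeleton genes, 127 other cytoskeleton genes, 17 immediate-early genes, 10 duct markers and 38 enzyme genes in knockouts 1 to 3 (red) and controls 1 and 2 (blue). The first 4 sets are highest in knockout 2 and lowest of the knockouts in knockout 3, and the enzymes run the other way.

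Acinar enzyme RNA was plentiful in all libraries, with Cpa1 at 60261, 87516 and 83625 counts in the knockouts and 1939 and 2674 in the controls. Acinar transcription factors had few counts in controls 1 and 2: 0 and 0 for Ptf1a and Nr5a2, 0 and 17 for Bhlha15, 10 and 0 for Rbpjl, and 2 and 20 for Gata4. In the knockouts Ptf1a had 85, 94 and 14 counts and Nr5a2 13, 39 and 0. Bhlha15 had 217, 359 and 309 there, Rbpjl 242, 489 and 575, and Gata4 38, 61 and 7. These counts are not scaled to depth. In CPM, Gata4 lay above every knockout in both controls, and Bhlha15 did so in control 2 alone. Rbpjl in control 1 lay within the range of the knockouts. The genes whose profile over the 5 libraries was most like the sum of the 10 genes were sought among 133 genes with at least 10 counts in every library. By the root mean square difference of centred log2 CPM, they included Krt18 (0.33), Fth1 (0.34), Eef1a1 (0.62) and Jund (0.71), where the median of the 133 genes was 1.46. They encode a keratin, the ferritin heavy chain, a translation elongation factor and an AP-1 transcription factor. Krt18 had 1415, 2509.7 and 394 CPM in the knockouts and 696 and 208 CPM in the controls, the same order as the summed cytoskeleton genes except that control 1 lay further below knockout 1.

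The control libraries also held counts in genes that acinar cells are not known to use. The 1451 olfactory and vomeronasal receptor genes summed to 37, 70 and 109 counts in the knockouts and to 102 and 102 in the controls. In CPM these were 11.7, 19.6 and 32.6 in the knockouts, against 1511 and 1417 in the controls. Single receptors reached 2, 5 and 7 counts in the knockouts and 11 and 21 in the controls. In control 1, only Actb with 55 counts and Pfn1 with 12 exceeded the highest receptor. In control 2, none of the 10 genes did, as Actb had 9 counts and all 10 together 22. The part of such counts in the control values of the cytoskeleton genes was not tested.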

How the data were processed

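RNA-seq counts of 5 libraries were used. The authors deposited whole-number counts per gene symbol, without normalization. Per the submitters' processing notes, the build was mm9 and the tools were HTSeq 0.9.1, TopHat2 2.1.1, Cuffdiff 2.2.1.5 and Cuffnorm 2.2.1.2, with no roles given. The strand setting and the multi-mapping rule were not given in the sources used here. The genes, lists and tests were chosen with earlier results of these data known.

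CPM scales each count to its library's total without Rn45s and Lars2. edgeR 4.0.16 (R 4.3.3, glmQLFit with robust estimation, glmQLFTest, two-sided) was fitted on the same totals with filterByExpr and group as the only term, without Rn45s and Lars2, with calls at a Benjamini-Hochberg adjusted p under 0.05. Earlier work on these data used TMM factors over all genes, which are an alternative here. The fit was tested on simulated data. At the real depth it called almost none of the planted changes, and a second simulation with deep controls was then added to check the code.

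Intervals are exact 95% Poisson or binomial and cover counting error only. From each list, the 3 genes with the highest mean CPM and any called gene could be named, along with the 5 genes most like the summed profile, and some of what these rules take is not reported here. Amy2a5, Tubb3, Cpa1, Krt7, the acinar transcription factors and the stellate cell and fibroblast markers without control counts were picked with values in view. The alternatives tried were other factors, totals and filters, DESeq2 1.42.0, a replicate block and each library left out in turn. Transcripts came from GENCODE M21, matched by symbol, and no mm9 coordinates are given.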

Additional observations from a re-analysis of the deposited data

How the results depend on the processing

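No tested gene of the 10 was called under other scalings, filters, DESeq2 or the replicate block, and 1 (Tmsb4x) was called higher without control 1. Actg1 was untested under the other scalings, DESeq2 and the block, and DESeq2 gave Tmsb10 and Tuba1b no adjusted p. The cause of the changes below was not tested. Genes called higher and lower numbered 16 and 133 as reported, 5 and 27 with TMM over all genes, 147 and 71 with TMM without Rn45s and Lars2, 33 and 234 on totals without enzymes, 47 and 472 with DESeq2, and 4 and 5 with the replicate block. Calls lower were 81 with RLE, 354 with upper quartile factors, 898 with no filter and 388 with 1 CPM in 2 libraries. Leaving out a library gave 0 to 19 higher and 4 to 378 lower.

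Of 123 fits of a single gene, 27 changed sign and 1 was stronger. With TMM over all genes, Tmsb10 was 1.65, Myl6 1.52, Tuba1a 0.18 and Tubb5 1.02 (log2). With TMM without Rn45s and Lars2 they were 1.70, 1.58, 0.24 and 1.08, and Tuba1b 0.56. With RLE factors Tmsb10 was 1.26, Myl6 1.15, Tuba1b 0.0762 and Tubb5 0.66. With upper quartile factors Tmsb10 was 0.15 and Myl6 0.0783, and without enzymes 0.34 and 0.21. The replicate block put Myl6 at 0.39 (edgeR adjusted p 0.998). Whether the replicate numbers pair the libraries could not be told. Deviations of same-numbered libraries from their group means correlated at -0.01 and 0.01, but at this control depth values near 0 do not exclude pairing.

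Without a library, Tmsb10 ranged from -1.07 to 7.17, Myl6 from -1.18 to 8.64, Tuba1b from -1.95 to 6.20, Tubb5 from -1.35 to 0.20 and Pfn1 from -0.13 to 1.03. The 3 highest rest on a control at 0. Tmsb4x was 1.45 to 13.01 with adjusted p from 0.0162 to 0.866, and 0.0640 to 0.962 under the other alternatives. The difference of log2 sums was -0.10 to 2.11 without a library, and 3.44 on all counts, which include Rn45s. The range among knockouts was 2.49-fold without enzymes and 5.40-fold on all counts. Actb over Actg1 was 119 on unshared runs, and 179 to 1110 without a knockout. The median of the tested genes minus that of all genes was -5.53 to 0.63 without a library. Its values without a control rest on many genes with no count in the control left. Control depth limits the comparisons between groups.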
